A study of Rattus norvegicus with 6 samples.

Results

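The genes described here are the ligands and receptors of the ephrin, semaphorin, Slit and netrin guidance systems, read in the pituitary gland of adult male rats. The members follow from a rule on the gene symbol and comprise 68 of the 33294 genes in the count files. The gene symbols cover the Eph receptors (Epha, Ephb), the ephrins (Efna, Efnb), the semaphorins of classes 3 to 7 (Sema), the plexins (Plxn), the neuropilins (Nrp1, Nrp2), the Slits and Robos, the netrins (Ntn) and the netrin receptors Dcc and Unc5. The gene families themselves were picked with earlier results of these data known. Of the 68 genes, 65 passed edgeR's filter on low counts, among 17292 genes tested in all.

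Dams carried an osmotic mini-pump that delivered nicotine tartrate (6 mg/kg/day) or sterile saline during pregnancy. By the paper's methods the pump could run longer than the time from its placement to birth. Its removal is not described, so exposure may have gone on after birth. Pituitary glands were taken from their Sprague-Dawley male progeny at 11 weeks of age, 3 from the nicotine group and 3 from the control group, and 1 RNA-seq library was made per gland. Both groups were ordinary Sprague-Dawley rats, with no transgene or deletion named in the labels. The p-values judge the group difference against the spread between glands within a group. The sources do not say whether rats of a group shared a dam. If the 6 glands include littermates, that spread may understate the spread between dams.

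Guidance molecules were first described as cues that steer growing axons. Ephrins are tethered to the membrane and bind Eph receptor tyrosine kinases on the neighbouring cell, semaphorins bind plexins, Slits bind Robos, and netrins bind Dcc and Unc5 receptors. Class 3 semaphorins are secreted and mostly need a neuropilin beside the plexin, whereas the semaphorins of classes 4 to 7 are held in the membrane. The same molecules act outside the nervous system on blood vessels, connective tissue and epithelia, and the pituitary holds hypothalamic axons, portal vessels and endocrine cells in one organ.

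The libraries held 28318383 to 85977002 counts assigned to genes, and the median total of the nicotine group was 1.70 times that of the control group. Growth hormone (Gh1), a defining gene of the anterior pituitary, stood between 52429 and 115788 CPM in every library, where CPM are counts scaled to the size of the library. The library that stood apart most was nicotine replicate 2, whose mean distance to the rest over log2 CPM was 90.8, against 72.0 to 80.7 for the other 5. Levels are CPM with edgeR's TMM scaling factors, which makes a gene comparable between rats but not with a gene of another length. Differences are log2 fold changes of nicotine over control with their standard error (SE), from edgeR's quasi-likelihood test.

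The clearest differences among the guidance genes were the lower levels of the secreted ligands Sema3c and Sema3d after prenatal nicotine. Sema3c was 2.67-fold and Sema3d 2.17-fold lower, and for both genes every nicotine rat lay below every control rat. Most of the other guidance genes leaned the other way by a small amount, with a median log2 fold change of 0.29 over the 65 genes tested. Calls required a fold change over 1.5 together with an adjusted p below 0.1. By that rule edgeR called 0 guidance genes and 0 of all genes tested (0%). DESeq2 called 2 guidance genes, Sema3c and Sema3d, against 62 of 17876 genes overall (0.347%), of which those lower after nicotine were 0.241% of the genes tested. Both genes are also on the study's own list of changed genes, which was chosen on the same 6 libraries, so the DESeq2 calls are not independent evidence.

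The sequences before the start sites of Sema3c, Sema3d and their close relative Sema3e are shown because these neighbouring class 3 genes differed in how far they were lower. Each run holds 250 bases before and 50 after the RefSeq start, on build GRCr8, on the minus strand of chromosome 4. Capitals mark the motifs searched, which in Sema3d is a CCAAT box read on the opposite strand and in Sema3e are a pair of GC boxes (GGGCGG or its reverse complement) and an E box (CACGTG).
Sema3c (chr4:18699578-18699877): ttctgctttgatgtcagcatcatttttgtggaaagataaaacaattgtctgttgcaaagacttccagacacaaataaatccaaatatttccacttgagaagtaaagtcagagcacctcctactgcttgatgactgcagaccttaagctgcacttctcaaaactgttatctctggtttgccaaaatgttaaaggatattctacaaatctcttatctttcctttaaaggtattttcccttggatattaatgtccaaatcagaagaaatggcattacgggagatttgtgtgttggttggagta
Sema3d (chr4:23460922-23461221): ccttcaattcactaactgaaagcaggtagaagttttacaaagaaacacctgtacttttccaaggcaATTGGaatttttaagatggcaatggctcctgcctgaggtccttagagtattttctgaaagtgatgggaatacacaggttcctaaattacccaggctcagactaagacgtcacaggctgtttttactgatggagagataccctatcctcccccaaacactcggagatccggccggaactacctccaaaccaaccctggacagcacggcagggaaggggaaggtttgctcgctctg
Sema3e (chr4:21510325-21510624): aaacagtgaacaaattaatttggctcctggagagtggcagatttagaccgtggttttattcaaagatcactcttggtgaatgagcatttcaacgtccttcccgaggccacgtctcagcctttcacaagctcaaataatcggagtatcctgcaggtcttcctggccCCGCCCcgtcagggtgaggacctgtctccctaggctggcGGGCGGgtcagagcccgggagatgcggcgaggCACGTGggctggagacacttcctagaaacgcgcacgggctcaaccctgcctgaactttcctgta

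The Sema3c window had a GC content of 36.3% and 1 CpG, the Sema3d window 47.3% and 6 CpGs, and the Sema3e window 55.3% and 16 CpGs. The median over all promoters in the RefSeq table was 51.7% GC. Both strands were searched for a TATA box (TATAAA), a GC box, a CCAAT box, an AP-1 site (TGANTCA) and an E box, and the Sema3c window held none of the 5. Promoter sequence was found for 53 of the 68 guidance genes. Among these 30 held a GC box (56.6%, against 33.1% of all 33469 promoters) and 0 held TATAAA (against 14.2%). A CCAAT box was found in 18 of the 53 (34%, against 37.5%), an E box in 5 (9.43%, against 6.42%) and an AP-1 site in 1 (1.89%, against 7.33%). The 33469 promoters were not limited to coding genes or to 1 per gene, as the 53 were. The sets compared may therefore be unlike, and the shares are given as description only. A match is a stretch of letters and not a site shown to be bound, and the start used in the pituitary may differ from the RefSeq start. In the RefSeq gene order on chromosome 4, Sema3a and Sema3d are adjacent with 0 coding genes between them, and Sema3c is separated from Sema3e by 4 coding genes (Cdhr17, Hgf, Cacna2d1 and Pclo).

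Among the secreted class 3 semaphorins, Sema3c was at 8.13, 6.30 and 13.3 CPM in nicotine replicates 1, 2 and 3 and at 19.2, 31.3 and 23.2 CPM in control replicates 1, 2 and 3. The highest nicotine rat thus lay below the lowest control rat. The nicotine rats averaged 9.22 ± 3.61 CPM and the control rats 24.6 ± 6.17 CPM (SD, n = 3 each). Sema3c signals through neuropilin and plexin receptors and is known from the development of the heart outflow tract. Its log2 fold change was -1.42 (SE 0.28), with an unadjusted p of 3.92e-04 and an adjusted p of 0.558 in edgeR and 0.00116 in DESeq2. The exact two-sided permutation test gave 0.1, the smallest p that 3 against 3 rats allow.

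Sema3d was at 2.55, 2.08 and 3.73 CPM in nicotine replicates 1, 2 and 3 and at 6.20, 6.75 and 5.2 CPM in control replicates 1, 2 and 3. The groups again did not overlap, and the level in nicotine replicate 3 was the nearest to the controls for both genes. Its log2 fold change was -1.12 (SE 0.27), with an adjusted p of 0.798 in edgeR and 0.0305 in DESeq2. These levels rest on 120 to 357 counts of Sema3d and 383 to 1657 counts of Sema3c per library. Without any filter on low counts edgeR also called Sema3c, with an adjusted p of 0.0252. In DESeq2 fits that each left out 1 library, Sema3c was called in every fit, and Sema3d in the 3 fits that left out nicotine rat 2, nicotine rat 3 or control rat 3.

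In the other class 3 semaphorins the groups overlapped. Sema3e, which binds Plxnd1 directly, was at 14.1, 14.3 and 17.4 CPM after nicotine and at 14.3, 18.9 and 26.9 CPM in controls, with control replicate 3 standing highest. Its log2 fold change was -0.39 (SE 0.23), with an adjusted p of 0.848 in edgeR. Sema3a, the class member known for repelling sensory axons, was at 6.36, 4.42 and 8.99 CPM after nicotine and at 5.65, 9.49 and 5.55 CPM in controls. Sema3f, which acts mainly through Nrp2, was at 27.1, 17.8 and 29.3 CPM after nicotine and at 21.7, 26.6 and 11.8 CPM in controls. The log2 fold changes were -0.07 (SE 0.30, adjusted p = 0.973 from edgeR) for Sema3a and 0.30 (SE 0.29, adjusted p = 0.861 from edgeR) for Sema3f. Sema3b and Sema3g had log2 fold changes of 0.17 and 0.20.

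The contrast between these relatives was also read as ratios within each library, which were chosen after the values were seen. The ratio of Sema3d to its chromosomal neighbour Sema3a was 0.40, 0.472 and 0.415 after nicotine and 1.10, 0.711 and 0.938 in controls. The ratio of Sema3c to Sema3e was 0.577, 0.441 and 0.759 after nicotine and 1.34, 1.66 and 0.865 in controls. Neither ratio overlapped between the groups, with an exact permutation p of 0.1 for each. Sema3c and Sema3d already separated the groups in CPM alone, so these ratios are not independent evidence of a difference. The ratio of Sema3c to Sema3d did overlap, at 3.02 to 3.55 after nicotine and 3.10 to 4.64 in controls (exact permutation p = 0.3).

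**Figure D1:**
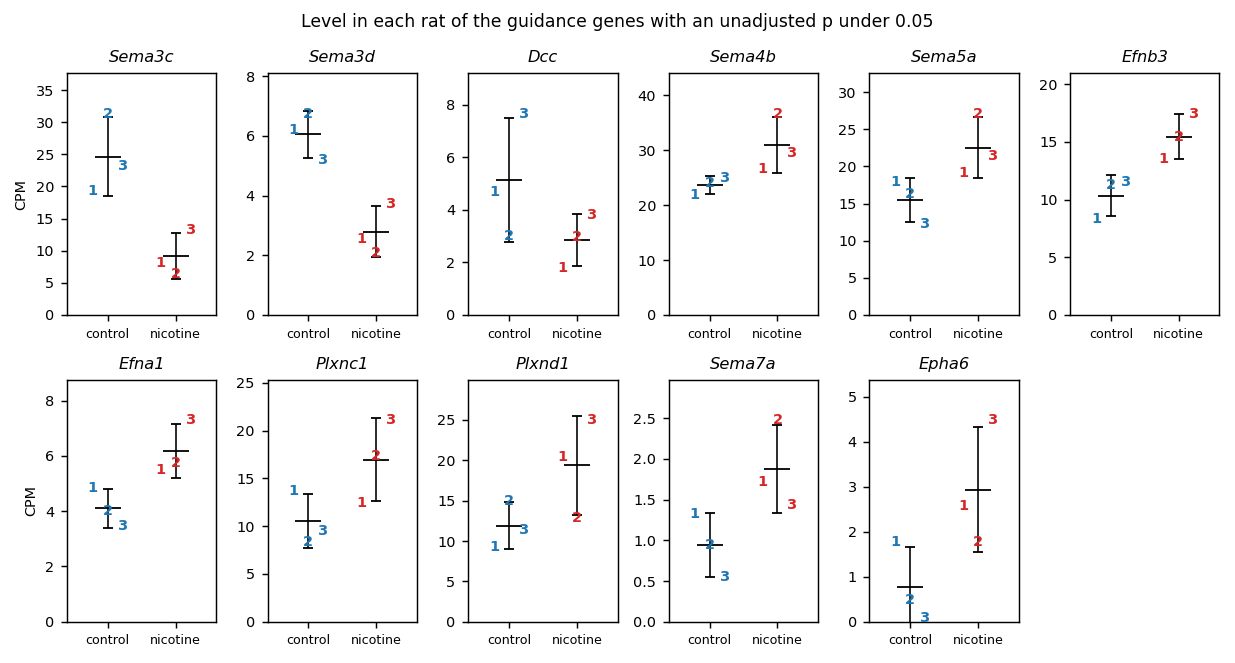
Level of each guidance gene with an unadjusted p under 0.05 in edgeR, in CPM on the vertical axis (each panel has its own scale, starting at 0), for control and nicotine rats. Each digit is 1 rat, labelled by its replicate number, the horizontal bar is the group mean and the whisker is ± 1 SD (cut at 0 for Epha6 in controls); Sema3c and Sema3d show all 3 nicotine rats below all 3 controls, while Dcc, Plxnc1, Plxnd1 and Epha6 overlap.

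Markers of connective tissue moved with Sema3c and Sema3d. Of 17 marker genes of fibroblasts and meninges, with a median log2 fold change of -0.73, 16 were lower after nicotine. Of these 9 had an unadjusted p under 0.05 (52.9% of the list, against 2.73% of all genes). The list was chosen with earlier results of these data known. It holds Efemp1 and Gjb2, which the study reports as changed in the same libraries, so these counts are not independent evidence. Their summed level was 891, 534 and 1206 CPM in nicotine replicates 1, 2 and 3 and 1199, 1464 and 1231 CPM in control replicates 1, 2 and 3, and no gene of the list was at 0. In a whole gland, fewer cells of a type and less RNA per cell cannot be told apart. Per 1000 CPM of that summed list, Sema3c was at 9.12, 11.8 and 11.0 CPM after nicotine and at 16.0, 21.4 and 18.9 CPM in controls. Sema3d was at 2.86, 3.90 and 3.10 CPM after nicotine and at 5.17, 4.61 and 4.23 CPM in controls on the same scale. For both genes the groups stayed apart relative to the summed list (exact permutation p = 0.1, ratios chosen after the values were seen). Against the single list member Efemp1, a matrix gene of the fibulin family, the ratio of Sema3c overlapped, at 0.549 to 0.635 after nicotine and 0.559 to 0.668 in controls. Efemp1 was the most lowered gene of the list, with a log2 fold change of -1.32 close to that of Sema3c. The overlap of this ratio therefore tests nothing about the list. The part of the connective tissue markers in the levels of Sema3c and Sema3d was not tested.

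**Figure D2:**
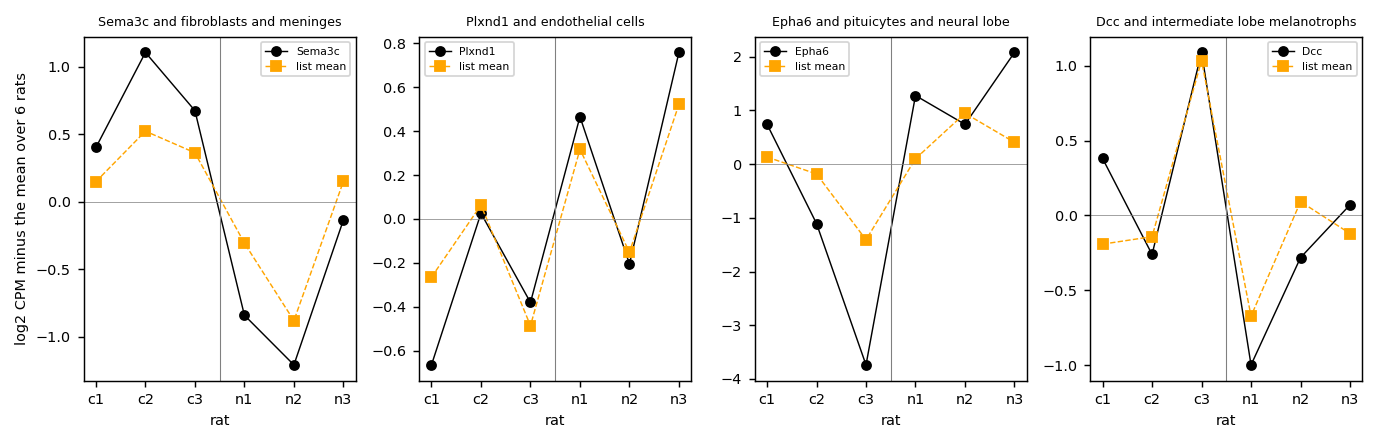
Log2 CPM of 4 guidance genes (black circles) and mean log2 CPM of a cell type marker list (orange squares) in each rat, each minus its mean over the 6 rats (c, control; n, nicotine; vertical scales differ). Sema3c and the fibroblast list are both lowest in n2, Plxnd1 and the endothelial list are both highest in n3, Epha6 and the pituicyte list are both lowest in c3 but part in n2, where Epha6 is the lowest of the nicotine rats and the list the highest, and Dcc and the melanotroph list are both highest in c3.

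The membrane-bound semaphorins of classes 4 to 7 leaned higher, with 12 of 13 above 0 and a median log2 fold change of 0.29. At an unadjusted p under 0.05 in edgeR stood 11 guidance genes (16.9% of those tested, against 5.85% of all genes), 8 higher (12.3% against 3.12%) and 3 lower (4.62% against 2.73%). Among the membrane semaphorins these were Sema7a, Sema5a and Sema4b, all higher. Sema7a, which is anchored by a lipid and binds Plxnc1 and integrins, was at 1.72, 2.47 and 1.44 CPM after nicotine and at 1.33, 0.946 and 0.555 CPM in controls. The gap between the groups was narrow, since control replicate 1 lay close to nicotine replicate 3, and the control levels rest on 21 to 50 counts. Its log2 fold change was 1.01 (SE 0.39, adjusted p = 0.831 from edgeR).

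Sema5a, which carries thrombospondin repeats, was at 19.1, 27.1 and 21.4 CPM after nicotine and at 17.9, 16.2 and 12.3 CPM in controls. Sema4b was at 26.7, 36.7 and 29.5 CPM after nicotine and at 21.9, 24.1 and 25 CPM in controls. In both genes the nicotine rats lay above the control rats and nicotine replicate 2 was the highest. The log2 fold changes were 0.54 (SE 0.20, adjusted p = 0.811 from edgeR) for Sema5a and 0.39 (SE 0.17, adjusted p = 0.839 from edgeR) for Sema4b. Sema6b was at 19.6, 21.9 and 25.6 CPM after nicotine and at 15.7, 18.0 and 30.9 CPM in controls, with the highest level in a control rat. The remaining members of these classes (Sema4a, Sema4c, Sema4d, Sema4f, Sema4g, Sema5b, Sema6a, Sema6c and Sema6d) had log2 fold changes between -0.05 for Sema4c and 0.45 for Sema6a, none at an unadjusted p under 0.05.

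The plexins, the receptors of the semaphorins, leaned highest as a class, with 8 of 8 above 0 and a median log2 fold change of 0.44. Of these, Plxnd1 and Plxnc1 had an unadjusted p under 0.05. Plxnd1, the endothelial receptor of Sema3e, was at 20.4, 12.8 and 24.9 CPM after nicotine and at 9.31, 15.0 and 11.3 CPM in controls. Nicotine replicate 2 lay below control replicate 2, and the log2 fold change was 0.70 (SE 0.26, adjusted p = 0.811 from edgeR). Without nicotine replicate 2 DESeq2 called Plxnd1, with a log2 fold change of 0.92 and an adjusted p of 0.0331.

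Plxnc1, the receptor of Sema7a, was at 12.5, 17.4 and 21.1 CPM after nicotine and at 13.7, 8.32 and 9.48 CPM in controls. The overlap came from control replicate 1, which lay above nicotine replicate 1. The log2 fold change was 0.70 (SE 0.25, adjusted p = 0.807 from edgeR). Plxnb1 and Plxnb2, receptors of class 4 semaphorins, had log2 fold changes of 0.33 (SE 0.21) and 0.41 (SE 0.20). Plxnb2 was at 178, 264 and 235 CPM after nicotine and at 143, 185 and 182 CPM in controls, so nicotine replicate 1 lay within the control range. Plxnb1 was at 59.0, 80.3 and 71.0 CPM after nicotine and at 40.6, 55.7 and 71.1 CPM in controls. Plxna1 to Plxna4 lay between 0.31 and 0.57, and in Plxna4 the groups did not overlap (2.63 to 3.63 CPM after nicotine, 1.93 to 2.29 CPM in controls). Plxnb3 had 1 to 20 counts per library and was removed by edgeR's filter, and in DESeq2 its adjusted p was 0.988.

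Both neuropilins, the co-receptors of class 3 semaphorins, overlapped between the groups. Nrp1 was at 20.5, 15.2 and 26.3 CPM after nicotine and at 17.5, 22.5 and 21.7 CPM in controls, with mean levels of 20.7 ± 5.51 and 20.6 ± 2.71 CPM (SD, n = 3). Nrp2 was at 26.2, 22.4 and 31.9 CPM after nicotine and at 18.2, 24.8 and 19.3 CPM in controls, a log2 fold change of 0.37 (SE 0.19, adjusted p = 0.839 from edgeR).

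Endothelial markers leaned higher beside the plexins. All 12 of 12 were above 0 (against 51.2% of all genes), 6 at an unadjusted p under 0.05 (50%, against 3.12% of all genes). Their median log2 fold change was 0.44, with summed levels of 239 to 400 CPM after nicotine and 198 to 272 CPM in controls. Of 14 smooth muscle and pericyte markers 14 were above 0, 6 at an unadjusted p under 0.05 (42.9%, against 3.12% of all genes). The list holds Acta2, which the study reports as higher in the same libraries. The median over the list was 0.70, with summed levels of 101 to 301 CPM after nicotine and 85.9 to 107 CPM in controls. The highest sum, in nicotine replicate 3, held 138 CPM of Tagln, a contractile gene that was at 32.4 CPM or less in the other rats. Without Tagln, left out after its values were seen, the sums were 115, 90.04 and 163 CPM after nicotine and 66.2, 86.1 and 71.3 CPM in controls. Per 1000 CPM of the summed endothelial list, Plxnd1 was at 61.3, 53.4 and 62.4 CPM after nicotine and at 43.8, 55.2 and 57.3 CPM in controls. Relative to this list the groups of Plxnd1 overlapped (exact permutation p = 0.3, ratio chosen after the values were seen). The groups already overlapped in CPM alone (exact permutation p = 0.2), so the overlap of the ratio says nothing about the part of the list. A higher lean was not particular to vessel markers. Of 15 endocrine markers of the anterior lobe 10 were above 0, with a median of 0.37. Of these 3 were higher at an unadjusted p under 0.05 (20%). Of 12 neuron and axon markers 9 were above 0, with a median of 0.25. At that threshold 5 were higher (41.7%) and 1 lower (8.33%, against 2.73% of all genes).

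**Figure D3:**
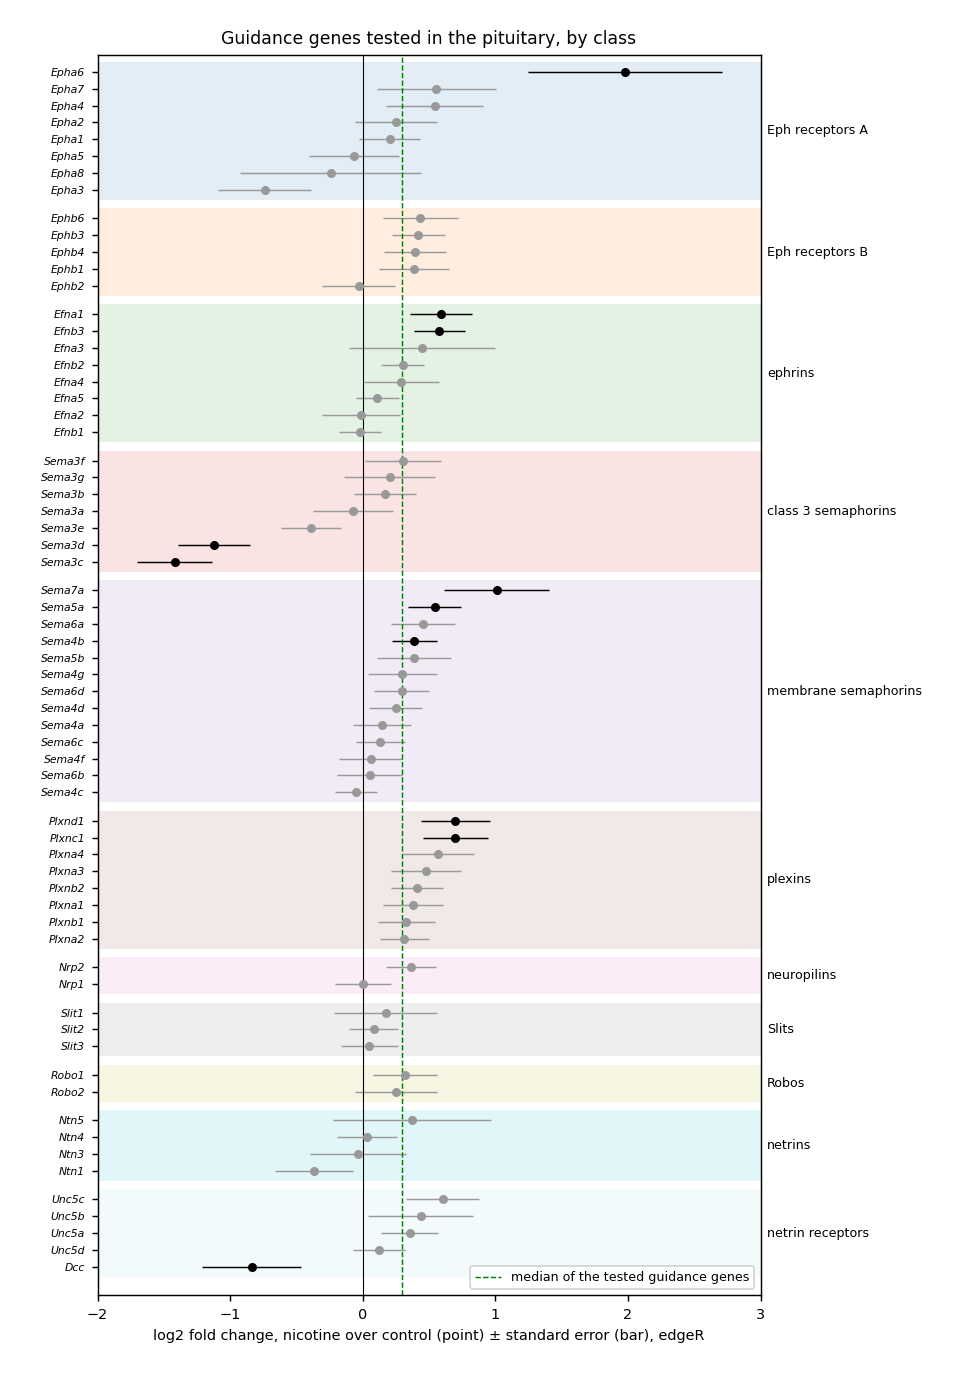
Log2 fold change of nicotine over control for the 65 guidance genes tested (horizontal axis, point ± SE from edgeR), grouped by class. Black points have an unadjusted p under 0.05 and grey points do not; the dashed line is the median of 0.29, and all 8 plexins lie to the right of 0 while Sema3c and Sema3d lie at -1.42 and -1.12.

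Of the ephrins 6 of 8 were above 0, around a median of 0.30. Efnb3, a transmembrane ephrin that marks the midline of the nervous system, was at 13.5, 15.4 and 17.4 CPM after nicotine and at 8.31, 11.2 and 11.5 CPM in controls. Efna1, a ligand of Epha2 that is induced in vessels, was at 5.49, 5.74 and 7.29 CPM after nicotine and at 4.84, 4.01 and 3.46 CPM in controls. Both genes separated the groups, with log2 fold changes of 0.58 (SE 0.19, adjusted p = 0.807 from edgeR) for Efnb3 and 0.59 (SE 0.23, adjusted p = 0.833 from edgeR) for Efna1. Efna3 and Efna4, which neighbour Efna1 on chromosome 2, had log2 fold changes of 0.45 (SE 0.55) and 0.29 (SE 0.28). Efnb1 was at 32.8 to 37.9 CPM after nicotine and 32.5 to 40.1 CPM in controls. Efna5 was at 25.3 to 29.1 CPM after nicotine and 23.3 to 28.9 CPM in controls. Efna2 and Efnb2 had log2 fold changes of -0.01 and 0.30.

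The fold changes of the Eph A receptors spanned the widest range of the 11 classes, from -0.74 to 1.98 on the log2 scale around a median of 0.23. Epha6 was at 2.57, 1.77 and 4.48 CPM after nicotine and at 1.77, 0.492 and 0.0792 CPM in controls, and the groups overlapped because control replicate 1 reached the level of nicotine replicate 2. The control values rest on 48, 26 and 3 counts. The log2 fold change was 1.98 (SE 0.73, adjusted p = 0.811 from edgeR), and it lay between 1.43 without control replicate 3 and 3.28 without control replicate 1. Without control replicate 1 DESeq2 called Epha6, with an adjusted p of 1.17e-04. Epha6 is an Eph receptor of the retina and brain.

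Markers of pituicytes, the glia of the neural lobe, leaned higher in the same comparison. Of 9 such markers, with a median log2 fold change of 1.19, 8 were above 0. Of these 4 had an unadjusted p under 0.05 (44.4% of the list, against 3.12% of all genes). The exception, Cndp1, was at 3.12, 6.37 and 5.07 CPM after nicotine and at 7.57, 8.08 and 7.42 CPM in controls, without overlap and with a log2 fold change of -0.66, also at an unadjusted p under 0.05. The pituicyte transcription factor Rax was at 5.16, 11.2 and 6.31 CPM after nicotine and at 5.69, 2.97 and 0.291 CPM in controls, lowest in the same rat as Epha6. Summed over the list, the levels were 99.2, 184 and 124 CPM after nicotine and 131, 97.2 and 89.3 CPM in controls. Among the nicotine rats the list and Rax were highest in replicate 2, where Epha6 was lowest. Per 1000 CPM of the summed list Epha6 was at 9.63 to 36.1 CPM after nicotine and 0.887 to 13.5 CPM in controls, with overlap (exact permutation p = 0.2). The groups of Epha6 already overlapped in CPM alone, so this overlap says nothing about the part of the list. The share of neural lobe in each gland was not recorded in the sources used here.

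Epha3, a receptor of A-type ephrins in mesenchyme and brain, was at 1.15, 0.858 and 1.11 CPM after nicotine and at 1.70, 2.27 and 1.19 CPM in controls. The groups did not overlap, although control replicate 3 lay close to the nicotine rats, and the log2 fold change was -0.74 (SE 0.35, adjusted p = 0.839 from edgeR). Per 1000 CPM of the summed fibroblast and meningeal list Epha3 was at 0.918 to 1.61 CPM after nicotine and 0.965 to 1.55 CPM in controls (exact permutation p = 0.8). Relative to that list the groups of Epha3 overlapped, unlike those of Sema3c and Sema3d, and the difference between the genes in this respect was not tested. Epha4, a receptor of both ephrin types, was at 7.02, 10.1 and 8.99 CPM after nicotine and at 9.75, 5.49 and 2.85 CPM in controls. Epha1, Epha2, Epha5 and Epha7 had log2 fold changes between -0.07 and 0.56, and Epha10, at 1 to 14 counts per library, was removed by edgeR's filter and got no adjusted p in DESeq2.

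Epha8, a neuronal Eph receptor, varied widely within both groups. It was at 1.29, 9.09 and 2.23 CPM after nicotine and at 2.55, 2.69 and 9.83 CPM in controls, so 1 rat of each group stood about equally far above the others. Slit1 was also highest in these same rats, nicotine replicate 2 and control replicate 3, as described below for the Slits. Pax7, the transcription factor of intermediate lobe melanotrophs, was at 12.5, 47.9 and 18.8 CPM after nicotine and at 18.5, 25.7 and 93.6 CPM in controls, again highest in that pair. Of the other melanotroph markers read, Oacyl, Pcsk2 and Gabrb1 were also highest within each group in these rats. Pomc and Drd2 were not, since both were highest after nicotine in replicate 3. Pomc was lowest of all rats in nicotine replicate 2, at 20412 CPM. The log2 fold change of Epha8 was -0.24 (SE 0.68), and it ran from -1.52 without nicotine replicate 2 to 0.70 without control replicate 3. The likeness of Epha8, Slit1 and Pax7 was noted after their values were seen.

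Of the Eph B receptors 4 of 5 were above 0, around a median of 0.39 and with none at an unadjusted p under 0.05. In Ephb3, a receptor of epithelia, the nicotine rats at 10.4 to 13.1 CPM lay just above the control rats at 7.16 to 10.3 CPM, a log2 fold change of 0.42 (SE 0.20). Ephb4, the receptor of venous endothelium, was at 18.1, 13.4 and 17.2 CPM after nicotine and at 10.2, 16.9 and 9.93 CPM in controls. Ephb1 was at 25.6, 18.6 and 33.4 CPM after nicotine and at 19.3, 26.4 and 13.6 CPM in controls. In Ephb1 and Ephb4 the groups crossed in the same rats, nicotine replicate 2 and control replicate 2. Ephb6 and Ephb2 had log2 fold changes of 0.44 and -0.03.

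The Slits and Robos gave no separation between the groups. Slit1 was at 12.1, 38 and 16.5 CPM after nicotine and at 16.2, 14.6 and 28.4 CPM in controls, and Slit2 at 28.7, 37 and 40.8 CPM after nicotine and at 29.8, 39.2 and 31.6 CPM in controls. The log2 fold changes of the 3 Slits lay between 0.05 and 0.18, around a median of 0.08 that turned to -0.030 without nicotine replicate 3. Robo1 was at 22.3, 13.9 and 24.2 CPM after nicotine and at 13.6, 20.4 and 14.3 CPM in controls. Robo2 was at 11.9, 9.11 and 17.7 CPM after nicotine and at 9.45, 15.7 and 7.26 CPM in controls. Both receptors were lowest after nicotine in replicate 2 and highest among controls in replicate 2. Robo3 had 0 to 2 counts per library, was removed by edgeR's filter and got no adjusted p in DESeq2.

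The netrins had a median log2 fold change near 0, whose sign changed with the scaling, from -0.038 to 0.029 over the fits of all 6 libraries. Ntn1, the secreted netrin of the floor plate, was at 17.3, 12.2 and 26.2 CPM after nicotine and at 15.6, 27.3 and 28.8 CPM in controls, a log2 fold change of -0.37 (SE 0.29, adjusted p = 0.858 from edgeR). Ntn4, a netrin of basement membranes, was at 30.6, 28.5 and 43.5 CPM after nicotine and at 26.5, 30.8 and 43.1 CPM in controls. In both genes the ranges of the groups overlapped over most of their width. Ntn3 and Ntn5 had log2 fold changes of -0.04 and 0.37, and Ntn5 rested on 3 to 32 counts per library.

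Of the netrin receptors 4 of 5 were above 0, with a median log2 fold change of 0.35, and the exception was Dcc. Dcc, the receptor through which netrin attracts axons, was at 1.80, 2.96 and 3.78 CPM after nicotine and at 4.69, 3.01 and 7.66 CPM in controls. Control replicate 2 lay within the nicotine range, and the log2 fold change was -0.84 (SE 0.37, adjusted p = 0.839 from edgeR). It shrank to -0.42 without control replicate 3, the rat in which Dcc and all melanotroph markers other than Gabrb1 were highest. Gabrb1 was highest in nicotine replicate 2, at 40.7 CPM against 30.9 CPM in control replicate 3. Of 6 melanotroph markers 5 were lower after nicotine, 1 at an unadjusted p under 0.05 (16.7%, against 2.73% of all genes). Their median was -0.69, with summed levels of 20801 to 46748 CPM after nicotine and 36426 to 72585 CPM in controls, most of it Pomc. Relative to the geometric mean of these markers the groups of Dcc overlapped (exact permutation p = 0.3, chosen after the values were seen). The groups of Dcc already overlapped in CPM alone, so this overlap says nothing about the part of the markers. Unc5a was at 17.8, 32.0 and 21.7 CPM after nicotine and at 16.4, 19.6 and 20.0 CPM in controls, and Unc5d at 19.7, 26.7 and 17.4 CPM after nicotine and at 21.2, 17.2 and 20.4 CPM in controls. Without nicotine replicate 2, the highest rat for both Unc5a and Unc5d, the class median shrank to 0.071. Unc5b and Unc5c had log2 fold changes of 0.44 (SE 0.39) and 0.60 (SE 0.28).

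**Figure D4:**
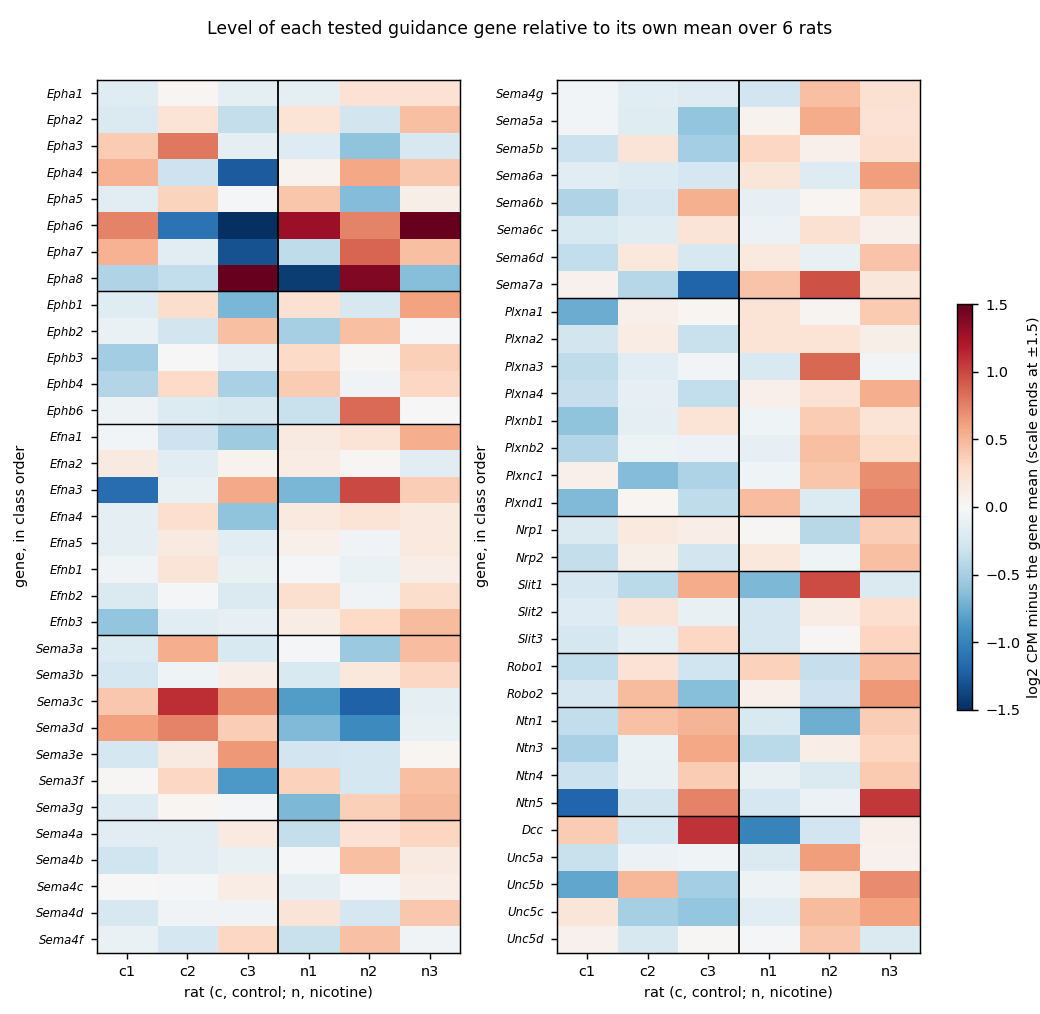
Log2 CPM of each tested guidance gene minus its own mean over the 6 rats (colour, red above and blue below the mean, scale ending at ±1.5), in class order from Eph receptors to netrin receptors, with controls (c1 to c3) left and nicotine rats (n1 to n3) right of the vertical line. Sema3c and Sema3d change colour at that line, and Epha8 and Slit1 are red in n2 and c3.

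Taking the guidance genes as a list, 51 of 65 had a log2 fold change above 0 (78.5%, against 51.2% of all genes tested), and 14 were below 0. The median of 0.29 stood beside 0.0079 for all genes tested and 0.015 for the 15954 genes whose mean CPM lay within the range of the guidance genes. Receptors had a median of 0.37 over 30 genes and ligands of 0.17 over 35. Without the class 3 semaphorins the median was 0.31, and 48 of 58 genes were above 0. In 10 guidance genes the groups did not overlap (15.4%, against 11.3% of all genes). Of these Sema4b, Efnb3, Ephb3, Sema5a, Efna1, Plxna4 and Sema7a were higher after nicotine (10.8%, against 6.12%), and Epha3, Sema3c and Sema3d were lower (4.62%, against 5.14%).

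The lean of the list was not shared evenly by the rats. The median of the guidance genes in each library, relative to the mean of the controls, was 0.078, 0.24 and 0.39 in nicotine replicates 1, 2 and 3 and -0.12, 0.090 and -0.046 in control replicates 1, 2 and 3, in log2 units. Nicotine replicate 1 thus lay just below control replicate 2. The median log2 fold change dropped from 0.29 to 0.16 without nicotine replicate 3, to 0.17 without nicotine replicate 2 and to 0.18 without control replicate 1. The count at an unadjusted p under 0.05 dropped from 11 to 6 both without nicotine replicate 3 and without control replicate 3. Genes of a list share cell types and libraries and are not independent, and no test of the list as a whole was made.

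**Figure D5:**
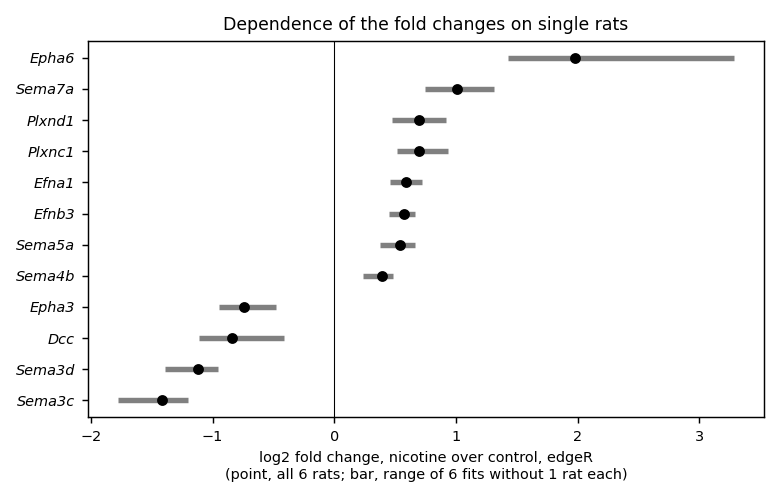
Log2 fold change of nicotine over control from edgeR (horizontal axis) for the guidance genes with an unadjusted p under 0.05 and for Epha3, with all 6 rats (point) and over the 6 fits without 1 rat each (bar, lowest to highest). No bar crosses 0; Sema3c runs from -1.78 to -1.21, Sema3d from -1.39 to -0.95 and Epha6 from 1.43 to 3.28.

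Genes that work with the guidance receptors were read from lists of 25 partner receptors and ligands and 49 cytoplasmic effectors. Of these 74 genes 72 were tested, the median log2 fold change was 0.15, and 0 were called by edgeR or DESeq2. Above 0 were 54 of them (75%, against 51.2% of all genes), a share near the 78.5% of the guidance genes. In 8 of the 72 the groups did not overlap and nicotine was higher (11.1%, against 6.12% of all genes). In 1 nicotine was lower without overlap (1.39%, against 5.14%). At an unadjusted p under 0.05 in edgeR stood 2 that were higher (2.78%, against 3.12% of all genes) and 1 that was lower (1.39%, against 2.73%), shares below the background that are no result about these lists. Kdr, the VEGF receptor that pairs with neuropilins on endothelium and is also one of the endothelial markers above, was at 60.8, 48.2 and 74.7 CPM after nicotine and at 40.3, 51.1 and 43.5 CPM in controls. Abl1, a tyrosine kinase that acts below Robo and Eph receptors, was at 46.1, 60.9 and 58.7 CPM after nicotine and at 37.6, 44.5 and 43.5 CPM in controls. Chn2, a chimaerin that switches off Rac, was at 6.00, 7.41 and 8.66 CPM after nicotine and at 10.5, 9.53 and 14.8 CPM in controls. Abl1 and Chn2 separated the groups and Kdr did not, with log2 fold changes of 0.40 (SE 0.17) for Abl1, -0.66 (SE 0.23) for Chn2 and 0.44 (SE 0.19) for Kdr, and adjusted p from edgeR of 0.839, 0.807 and 0.839.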

How the data were processed

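Pituitary RNA-seq libraries from 3 nicotine and 3 control rats were used. Per the labels and the methods, the authors prepared stranded libraries (NEBNext Ultra II Directional), mapped the reads to rn7 with HISAT2 2.1.0 and assigned them to UCSC ncbiRefSeq genes with featureCounts. The deposited values are raw counts per gene symbol. The strand setting and the treatment of multi-mapping reads are not given in the sources used here, so counts of overlapping or closely related genes are less certain. The labels' extraction text describes testis, whereas the sample labels say pituitary gland.

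Counts were analysed in R 4.3.3 with edgeR 4.0.16 (filterByExpr, TMM, quasi-likelihood test, Benjamini-Hochberg adjustment over all genes tested, no covariate). The SE is the log2 fold change divided by the square root of F. DESeq2 1.42.0 and limma 3.58.1 (voom) were alternatives, as were other scalings and filters, thinning, a replicate block and leaving out each library. For single values an exact permutation test (two-sided, 10 splits) was used, whose smallest p is 0.1. The scripts were tested on simulated counts. Depth was 28318383 to 85977002 counts per library.

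The gene families, marker lists and pathway lists were chosen with earlier results of these data known; the members of the families then followed from the gene symbol. Named genes were those called, those at an unadjusted p under 0.05, the 2 with the highest mean CPM in each of 11 classes, and Epha3. Levels were not ordered between genes, since transcript lengths were not used here. Promoter sequences are from RefSeq (GRCr8), matched by symbol. Testis measurements were not analysed here.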

Additional observations from a re-analysis of the deposited data

How the results depend on the processing

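Of the named guidance genes, Sema3c and Sema3d kept their direction in every alternative tried, with adjusted p in the edgeR and limma fits from 0.0252 to 0.855 for Sema3c and from 0.182 to 0.999 for Sema3d. The number of guidance genes called was 0 in edgeR, 2 with DESeq2 (Sema3c and Sema3d) and 1 without a filter on low counts (Sema3c, among 30 genes called in all), and 1 to 3 over the DESeq2 fits without 1 library each, against 0 in each such edgeR fit. The number at an unadjusted p under 0.05 ranged from 6 to 16 over the edgeR fits and from 7 to 15 over the DESeq2 fits without 1 library each. The median log2 fold change of the guidance genes ranged from 0.16 to 0.38 without 1 library each. Scaling by library sizes alone moved the median of all genes to 0.058, with that of the guidance genes at 0.35.

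The small fold changes of genes near 0 turned with the processing: Efnb1 to 0.029 with library sizes alone and Slit1 to -0.083 with limma voom. Over the edgeR and DESeq2 fits without 1 library each, Efnb1 ran from -0.078 to 0.091, Epha8 from -1.52 to 0.70, Nrp1 from -0.21 to 0.18, Ntn4 from -0.18 to 0.26, Robo2 from -0.043 to 0.64, Sema6b from -0.13 to 0.42, Slit1 from -0.47 to 0.55, Slit2 from -0.030 to 0.22 and Unc5d from -0.084 to 0.27. The causes were not tested. Counts were few for Epha10, Robo3 and Plxnb3, which edgeR's filter removed. Epha6 had 3 counts in control replicate 3 but 48 in control replicate 1, the library with the fewest counts.

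The replicate numbers did not pair the rats: same-numbered libraries had correlations of 0.03, -0.20 and -0.08 in their deviations from the group means, and 1 of 6 libraries correlated best with its own number. With the number as a replicate block, 0 guidance genes were called, 9 had an unadjusted p under 0.05, and Nrp1 turned to -0.020.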
